A study of Sus scrofa with 6 samples.

Results

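Muscle contracts through the sarcomere, a repeating unit in which thick filaments of myosin pull on thin filaments of actin. Tropomyosin lies along the actin filament and, with the 3 troponin subunits, keeps myosin off actin until calcium binds troponin C. Fast and slow fibres use different versions of many of these proteins, each from its own gene. The genes described here are ACTA1, TPM1, TPM2, TNNC1, TNNC2, TNNT1, MYL1, MYL11, NEB and MYBPH. They were chosen by symbol, and each of the 10 matched a single ID among the 25322 gene IDs of the pig (Sus scrofa) count files.

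RNA was sequenced from 6 tissue samples, which were Korean native pig muscle, Berkshire muscle, Korean native pig liver, Berkshire liver, Korean native pig fat and Berkshire fat. Each combination of breed and tissue is 1 library, so the libraries of a tissue are 1 of each breed. The labels give breed and tissue, and no age, sex, name of the muscle or fat depot. Whether 1 animal gave all 3 tissues of a breed is not stated, and p-values therefore describe the spread among these 6 libraries, with no separate measure of the spread between animals.

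A library held 5897407 to 7912093 reads on genes. Levels are given as CPM, counts scaled to library size by the TMM method, and 3 counts correspond to 0.294 to 0.692 CPM in the 6 libraries. Intervals cover counting error only. The tissue labels were checked against markers fixed as lists. Of 10 tested hepatocyte markers 10 were higher in liver than in muscle, where 18.6% of all genes tested were lower in muscle. Some of these markers had almost no counts outside liver, entered the test through liver alone and had to differ. Of 8 tested adipocyte markers 7 were lower in muscle than in fat, against 6.43% of all genes tested. The other 1, GPD1, which muscle also expresses, did not pass. ADIPOQ, LEP and FABP4 were not used here. In bulk tissue, fewer cells of a type and less RNA per cell cannot be told apart.

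ACTA1 (ENSSSCG00000010190) encodes skeletal actin, the core of the thin filament. It stood at 71091 CPM in Korean native muscle and 49067 CPM in Berkshire muscle, against 22.0 and 20.8 CPM in Korean native and Berkshire liver and 13.8 and 8.32 CPM in Korean native and Berkshire fat. Both muscle libraries were high and all 4 others low. With TMM scaling liver also lay above fat without overlap, but that difference did not pass (log2 1.00 ± 0.45, edgeR adjusted p = 0.14). With total-count scaling it was -0.02 (edgeR adjusted p = 0.97), while DESeq2 called it (0.95, adjusted p = 0.044). The log2 difference was 12.42 ± 0.69 (SE) for muscle over fat (edgeR adjusted p = 0.00017) and 11.42 ± 0.66 for muscle over liver (adjusted p = 7.9e-05). ACTA1, cardiac ACTC1 and smooth muscle ACTA2 encode nearly identical proteins, and how alike their transcripts are was not measured here. Where the transcripts match, reads may be assigned to the wrong gene or lost. ACTC1 stood at 9.46 and 35.3 CPM in Korean native and Berkshire muscle, and ACTA2 at 116 and 290 CPM.

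TPM1 (ENSSSCG00000004570) and TPM2 (ENSSSCG00000005316) encode tropomyosins, which muscle fibres, smooth muscle and other cells make as different isoforms of the same genes. TPM1 stood at 23852 CPM in Korean native muscle and 9270 CPM in Berkshire muscle, at 87.0 and 73.2 CPM in liver and at 117 and 152 CPM in fat, in the same order of breeds. TPM2 stood at 13365 and 12909 CPM in muscle, 57.8 and 64.4 CPM in liver and 61.7 and 65.0 CPM in fat. Muscle lay above both other tissues for both genes, and liver and fat overlapped for TPM2 but not for TPM1. The log2 difference of muscle over fat was 6.82 ± 0.66 for TPM1 (edgeR adjusted p = 0.00094) and 7.70 ± 0.51 for TPM2 (adjusted p = 0.00024). The counts per gene ID do not separate tropomyosin isoforms.

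TNNC2 (ENSSSCG00000007424) and TNNC1 (ENSSSCG00000011441) encode the calcium-binding subunit of troponin in fast fibres and in slow and cardiac fibres. TNNC2 stood at 19977 and 9592 CPM in Korean native and Berkshire muscle, 3.31 and 5.20 CPM in liver and 3.75 and 3.23 CPM in fat. TNNC1 stood at 2796 and 1556 CPM in muscle, 0.663 and 0.800 CPM in liver and 0.789 and 0.196 CPM in fat. Both genes were thus found almost only in muscle, and their liver and fat values overlapped. Outside muscle TNNC1 had 4, 4, 8 and 2 counts, so it entered the test through its muscle libraries alone and had to differ. The muscle level of TNNC1 was 3544 times that in fat in the Korean native libraries (counting interval 1798 to 8211). In the Berkshire libraries the ratio was 7944 (2198 to 65607), which rests on 2 counts in fat, fewer than the 3 taken as the floor.

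TNNT1 (ENSSSCG00000025353) encodes the slow subunit that ties troponin to tropomyosin. It stood at 3783 and 2665 CPM in Korean native and Berkshire muscle, 2.15 and 3.00 CPM in liver and 1.28 and 0.979 CPM in fat. The log2 difference was 11.45 ± 0.61 for muscle over fat (edgeR adjusted p = 0.00016) and 10.27 ± 0.58 for muscle over liver (adjusted p = 7.5e-05). Muscle lay above liver and fat with no overlap. With TMM scaling liver also lay above fat, on 13 and 15 counts in Korean native and Berkshire liver and 13 and 10 in fat. That difference did not pass (log2 1.18 ± 0.50, edgeR adjusted p = 0.12) and was 0.17 with total-count scaling (adjusted p = 0.78). The fast counterpart TNNT3 and the fast inhibitory subunit TNNI2 were not analysed here.

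MYL1 (ENSSSCG00000016157) and MYL11 (ENSSSCG00000007799) encode the essential and the regulatory light chain of fast myosin, the small subunits at the neck of the myosin head. MYL1 stood at 19572 and 8726 CPM in Korean native and Berkshire muscle, 3.81 and 4.60 CPM in liver and 3.85 and 1.57 CPM in fat. MYL11 stood at 20428 and 6938 CPM in muscle, 4.64 and 2.20 CPM in liver and 4.24 and 1.47 CPM in fat. Muscle did not overlap the other tissues, while liver and fat overlapped for both genes. The log2 difference of muscle over fat was 12.34 ± 0.76 for MYL1 (edgeR adjusted p = 0.00023) and 12.20 ± 0.62 for MYL11 (adjusted p = 0.00016).

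NEB (ENSSSCG00000016397) encodes nebulin, a giant protein that runs along the thin filament of skeletal muscle. It stood at 13107 and 10904 CPM in Korean native and Berkshire muscle, 16.7 and 19.6 CPM in liver and 5.82 and 3.33 CPM in fat. Here liver lay above fat in both breeds. NEB was the only 1 of the 10 genes that passed between liver and fat, with a log2 difference of 2.03 ± 0.46 (edgeR adjusted p = 0.016). Over all 13810 genes tested 28.7% passed in that comparison, 15.2% higher and 13.5% lower in liver, a larger share than among these 10. The NEB call was lost with total-count scaling (log2 1.00, adjusted p = 0.11), which moved the median of all genes to -0.94, and without Berkshire liver (1.66, adjusted p = 0.069) or Berkshire fat (1.65, adjusted p = 0.14).

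**Figure D1:**
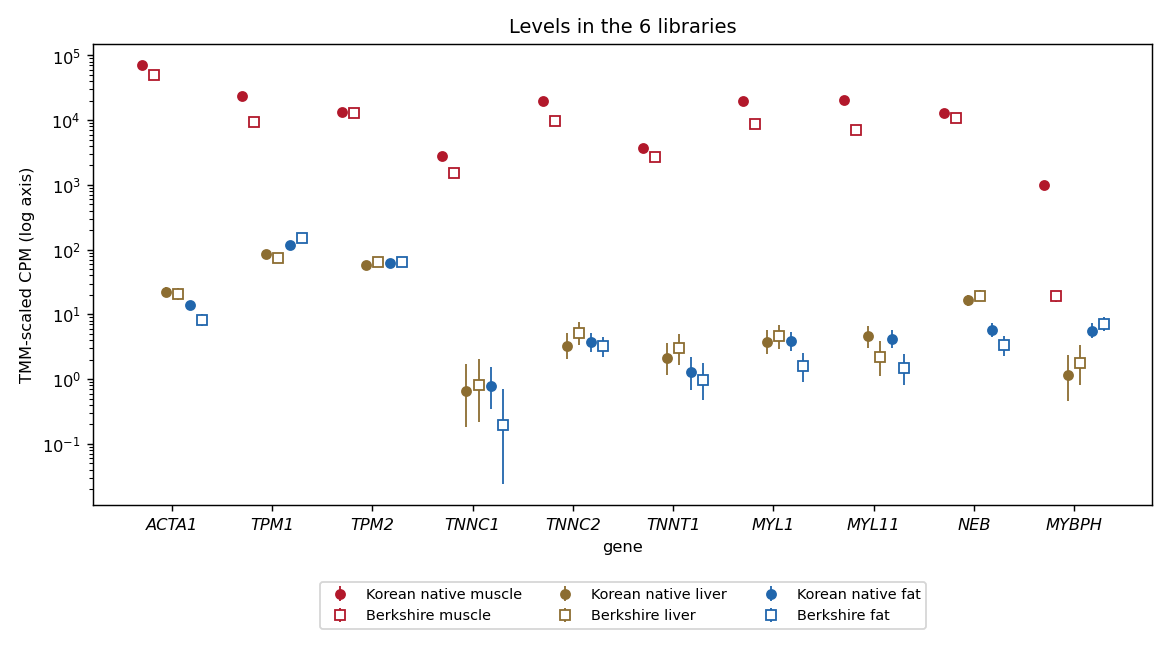
TMM-scaled CPM of the 10 genes in each library on a log axis, with 95% counting intervals as bars where they exceed the symbol. All muscle values lie above the liver and fat values of the same gene, and MYBPH in Berkshire muscle, at 19.0 CPM, lies closest to them.

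MYBPH (ENSSSCG00000030681), myosin binding protein H, sits on the thick filament and is related to the myosin binding protein C family. It stood at 1012 CPM in Korean native muscle and 19.0 CPM in Berkshire muscle, at 1.16 and 1.80 CPM in Korean native and Berkshire liver and at 5.62 and 7.15 CPM in Korean native and Berkshire fat. Korean native muscle stood far above every other library. Berkshire muscle was 2.66 times Berkshire fat (counting interval 1.96 to 3.64), against 180 times between Korean native muscle and fat (139 to 238). Both ratios would be lower with total counts. TMM scaling took Berkshire fat from 6335124 to 10210899 reads and Berkshire muscle from 5982109 to 5463423. The muscle mean was 515 ± 702 CPM (SD, n = 2).

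In the model over tissues MYBPH passed for muscle over liver, with a log2 difference of 7.66 ± 1.85 (edgeR adjusted p = 0.017), and missed the threshold for muscle over fat at 5.29 ± 1.72 (adjusted p = 0.078). Its values rest on the Korean native muscle library. Without it the log2 difference was 3.49 for muscle over liver (adjusted p = 0.003) and 1.37 for muscle over fat (adjusted p = 0.13). Without Berkshire muscle it was 9.64 (adjusted p = 0.00046) and 7.42 (adjusted p = 0.00067). Leaving out Korean native fat gave 2.75 for muscle over fat (adjusted p = 0.38), and leaving out Berkshire fat gave 6.83 (adjusted p = 0.035). Without Korean native or Berkshire liver it was 4.49 for muscle over fat in both cases (adjusted p = 0.017 and 0.02), and 5.51 and 8.94 for muscle over liver (adjusted p = 0.025 and 0.0011). The DESeq2 test (log2 5.70, adjusted p = 0.011), limma-voom (4.85, adjusted p = 0.044), the fit without a filter (5.27, adjusted p = 0.024) and the fit without the breed term (6.33, adjusted p = 0.038) each called muscle over fat.

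A neighbouring gene moved with MYBPH in muscle. In the RefSeq annotation of Sscrofa11.1, a later build than the one the reads were aligned to, the span of MYBPH overlaps that of ADORA1, the adenosine A1 receptor. ADORA1 stood at 647 and 17.8 CPM in Korean native and Berkshire muscle, 0.994 and 0.400 CPM in liver and 70.0 and 58.1 CPM in fat. It was 35.9-fold higher in Korean native than in Berkshire muscle, and its muscle libraries bracket its fat libraries, whereas MYBPH was lower in fat than in either muscle library. Neither the counting mode nor the use of strand is stated, and reads of the 2 genes cannot be told apart where they overlap. TNNC2 and MYL1 each overlap an uncharacterised gene in that annotation, and MYL11 was not listed there under its symbol.

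Across the 10 genes, 9 were higher in muscle than in fat and 10 were higher in muscle than in liver by the edgeR test. None was lower. Over all 13810 genes, 9.95% were higher and 6.43% lower in muscle than in fat, and 17.4% were higher and 18.6% lower in muscle than in liver. The 9 shared calls held with every scaling, filter, test and left-out library tried. These counts describe genes picked as sarcomere components and are no independent evidence that muscle expresses them.

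**Figure D2:**
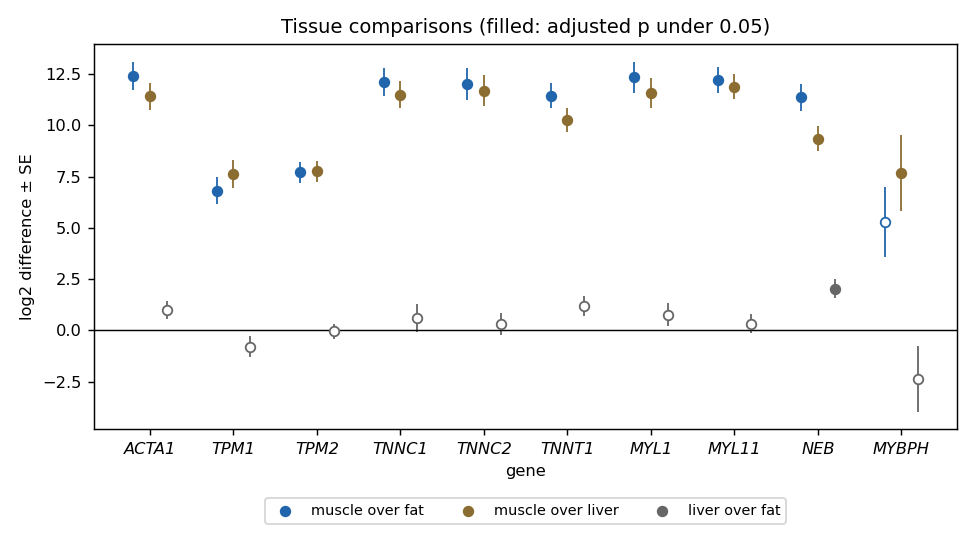
Log2 difference (with its SE) of each gene for muscle over fat, muscle over liver and liver over fat from the additive model of tissue and breed. Filled symbols passed at an adjusted p under 0.05. MYBPH has the widest bars, and NEB is the single gene filled for liver over fat.

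Outside muscle the genes fell into unlike ranges. Set against muscle of the same breed, ACTA1, TNNC1, TNNC2, TNNT1, MYL1, MYL11 and NEB had 0.0166% to 0.128% of the muscle CPM in Korean native liver and 0.0317% to 0.180% in Berkshire liver. In fat the same 7 genes had 0.0188% to 0.0444% in Korean native and 0.0126% to 0.0368% in Berkshire pigs. This grouping of 7 genes was made after their values were seen. NEB was highest of the 7 in both liver libraries and in Korean native fat, and TNNT1 was highest in Berkshire fat.

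TPM1 and TPM2 lay above that range in every liver and fat library. TPM1 had 0.365% and 0.790% of the muscle level in Korean native and Berkshire liver and 0.491% and 1.64% in fat. TPM2 had 0.433% and 0.499% in liver and 0.462% and 0.504% in fat. MYBPH ran from 0.115% in Korean native liver to 37.6% in Berkshire fat, a span set mostly by its muscle level. With total-count scaling the percentages in fat would be higher for every gene.

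Markers of the other tissues outside their own tissue spanned a wide range. Albumin (ALB), the main liver plasma protein, had in muscle 0.0247% and 0.0287% of its liver level in Korean native and Berkshire pigs, and in fat 0.0145% and 0.0117%. The adipocyte marker PLIN1 (perilipin 1), which coats lipid droplets, stood nearer its own tissue, at 18.9 and 95.7 CPM in Korean native and Berkshire muscle against 621 and 1096 CPM in fat. Summed over the 9 matched smooth muscle markers, the level was 1669 and 1807 CPM in Korean native and Berkshire liver and 1663 and 1552 CPM in fat, with none of the 9 at 0. CALD1 (caldesmon), which many other cells express, made up 1309 and 1447 CPM of the sum in liver and 1104 and 850 CPM in fat. MYH11, the smooth muscle myosin heavy chain, stood at 19.6 and 11.0 CPM in liver and 85.4 and 80.2 CPM in fat, and CNN1 (calponin) at 6.46 and 6.80 CPM in liver and 27.6 and 39.2 CPM in fat. MYF6 and VGLL2, factors of muscle cell identity, had 0 counts in all 4 liver and fat libraries. The part of other tissues and of smooth muscle cells in these low levels was not tested.

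**Figure D3:**
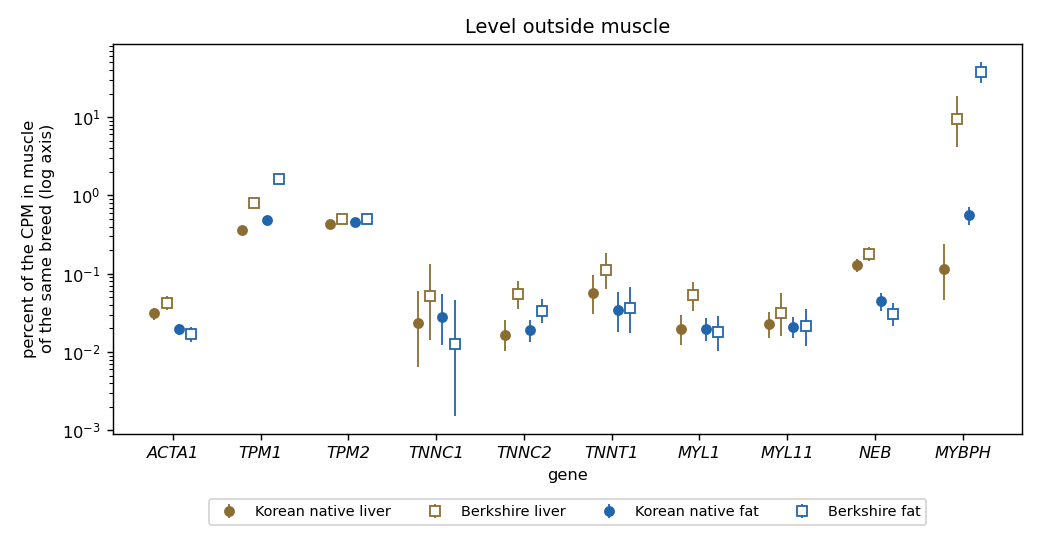
Level of each gene in liver and fat as a percentage of its CPM in muscle of the same breed, on a log axis, with 95% counting intervals. ACTA1, the troponins, the light chains and NEB lie between 0.0126% and 0.180%, TPM1 and TPM2 lie between 0.365% and 1.64%, and MYBPH in Berkshire fat reaches 37.6%.

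The breeds were compared over the 3 tissues and then within muscle. Over tissues 0 of 10 genes differed between Korean native and Berkshire libraries by edgeR, where 0.109% of all genes passed (0.0290% higher and 0.0797% lower in Korean native pigs). At an unadjusted p under 0.05 there was 1, MYL11, with a log2 difference of 1.41 ± 0.36 (adjusted p = 0.4), where 1103 of the 13810 genes tested reached that level. DESeq2 called MYL11 (log2 1.46, adjusted p = 0.0096) and limma-voom called 0 of 10. MYL11 had the higher value in the Korean native library in muscle, liver and fat. Its liver and fat values lay below 10 CPM. They rested on 28 and 11 counts in Korean native and Berkshire liver and on 43 and 15 in fat.

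Within muscle there is 1 library of each breed and no test. The log2 ratio of Korean native over Berkshire muscle ran from 0.05 for TPM2, 0.27 for NEB, 0.51 for TNNT1, 0.53 for ACTA1 and 0.85 for TNNC1 up to 1.06 for TNNC2, 1.17 for MYL1, 1.36 for TPM1, 1.56 for MYL11 and 5.71 for MYBPH. As folds, MYL11 was 2.94 times higher (counting interval 2.91 to 2.98), TPM1 2.57 times (2.55 to 2.60) and ACTA1 1.45 times (1.44 to 1.46). The slow genes TNNC1 and TNNT1 and the fast genes TNNC2, MYL1 and MYL11 were all higher in the Korean native library.

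Of the 10 genes 5 were at least 2-fold higher in Korean native muscle and 0 at least 2-fold lower, against 11.0% and 9.34% of the 8252 genes with at least 10 CPM in either muscle library. Genes enriched in muscle, higher than in both other tissues by a log2 of at least 2, made up 4.53% of all genes tested. Among those with at least 10 CPM, the 10 genes left out, 197 of 555 (35.5%) were at least 2-fold higher, with a median log2 ratio of 0.70 against 0.95 for the 10 genes and 0.08 for all 8252. Most of these ratios therefore lie inside the spread of other muscle genes, whose central 80% ran from -0.71 to 1.71. MYBPH lay outside it, with 4 of the 8252 genes at a higher ratio, none of which carries a symbol.

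Scaling moved these ratios. With total counts the median of all genes went to -0.26, and 3 of the 10 genes (TPM1, MYL11 and MYBPH) were at least 2-fold higher. TPM2 and NEB then had log2 ratios of -0.26 and -0.05, so their direction flipped. Centred on the median of the other muscle-enriched genes, an alternative chosen after seeing the data, ACTA1 (-0.16), TPM2 (-0.65), TNNT1 (-0.19) and NEB (-0.43) were lower, and MYBPH alone was at least 2-fold higher (5.01).

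**Figure D4:**
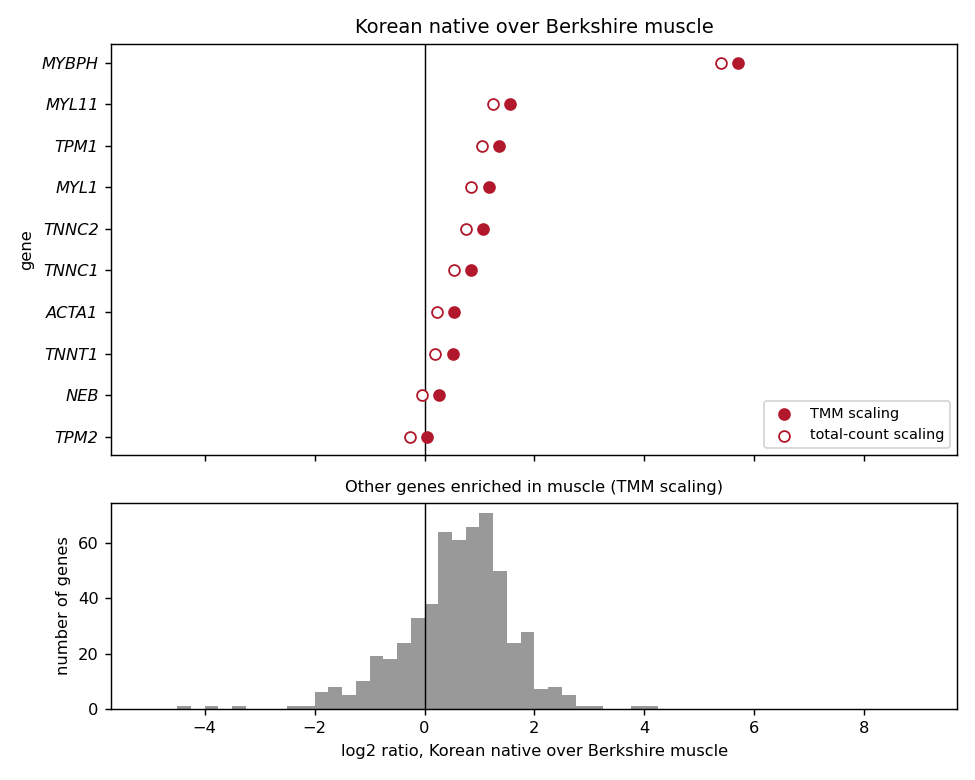
Top, log2 ratio of Korean native over Berkshire muscle for each gene with TMM scaling (filled) and total-count scaling (open). Bottom, number of other muscle-enriched genes at each log2 ratio with TMM scaling (555 genes, bins of 0.25). A gene at -5.351 lies to the left of the bins and is not drawn. MYBPH at 5.71 lies to the right of the whole histogram, and the other 9 genes lie within it.

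In liver 4 of the 10 genes and in fat 3 had at least 10 CPM in either library, and none of these differed by 2-fold between the breeds. Over all genes of that level, 5.76% were at least 2-fold higher and 5.53% lower in Korean native liver, and 4.15% higher and 3.42% lower in Korean native fat. In fat TPM1 was lower in the Korean native library, at 0.769 times the Berkshire level (counting interval 0.712 to 0.829), and ACTA1 was higher at 1.64 times (1.26 to 2.20). Below 10 CPM, MYL1 had 39 and 16 counts in Korean native and Berkshire fat, a ratio of 2.45 after scaling (1.34 to 4.70), and MYL11 had 43 and 15, a ratio of 2.89 (1.57 to 5.59). TNNC1 had 8 and 2 counts in fat, a ratio of 4.03 (0.804 to 38.9). In liver MYL11 had 28 and 11 counts, a ratio of 2.11 (1.02 to 4.69), and TPM1 was 1.19 times higher in the Korean native library (1.04 to 1.36). These ratios of genes below 10 CPM used no prior count. With a prior count of 2 they were 2.23 for MYL1, 2.57 for MYL11 and 2.22 for TNNC1 in fat. For MYL11 in liver the ratio was then 1.98.

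The muscle libraries also differed in markers of other cells. Summed over the 10 matched fibroblast and tendon markers, the level was 5025 CPM in Korean native muscle and 22221 CPM in Berkshire muscle, and 0 of the 9 with at least 10 CPM were higher in the Korean native library. COL3A1, a collagen chain, stood at 2773 and 14585 CPM. The smooth muscle markers summed to 674 and 1536 CPM, with 0 of 8 higher. The adipocyte markers other than GPD1 were also lower, PLIN1 standing at 18.9 and 95.7 CPM, but the list summed to 1470 and 804 CPM, with GPD1 at 1145 and 246 CPM. The macrophage markers summed to 32.1 and 90.8 CPM. The endothelial markers summed to 476 and 532 CPM, with 2 of 5 higher in the Korean native library, KDR among them at 81.4 and 46.1 CPM. MARCO alone among these 5 lists was at 0 in a muscle library, the Korean native one. Their part in the breed ratios was not tested.

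Ratios between related genes in a library do not depend on scaling. TPM1 made up 64.1% of the TPM1 and TPM2 counts in Korean native muscle (exact binomial interval 63.9% to 64.3%) and 41.8% in Berkshire muscle (41.5% to 42.1%). In liver the share was 60.1% and 53.2%, and in fat 65.5% and 70.1%. Berkshire muscle thus had the lowest share of the 6 libraries and Berkshire fat the highest.

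TNNC1, the slow form, made up 12.3% of troponin C counts in Korean native muscle (12.1% to 12.5%) and 14.0% in Berkshire muscle (13.7% to 14.2%). MYL1 made up 48.9% of the MYL1 and MYL11 counts in Korean native muscle (48.7% to 49.2%) and 55.7% in Berkshire muscle (55.4% to 56.0%). These muscle shares differ beyond counting error, with no replicate to show the spread between animals. Outside muscle the 2 pairs had 24 to 82 counts in a library, too few to set their shares apart from those in muscle of the same breed at this depth. The counts are not corrected for transcript length, so a share is compared only between libraries.

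**Figure D5:**
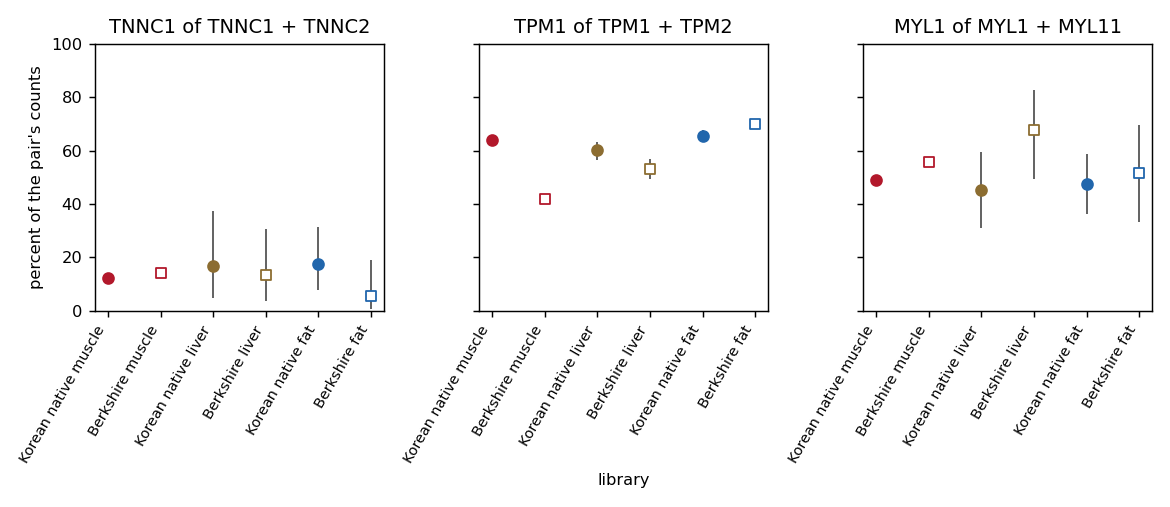
Share of the first gene in the counts of a related pair, in percent, for each library with exact 95% binomial intervals. TPM1 takes 64.1% in Korean native muscle and 41.8% in Berkshire muscle, TNNC1 takes 12.3% and 14.0%, and MYL1 takes 48.9% and 55.7%.

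The 10 genes took 13.9% of all gene counts in Korean native muscle and 10.2% in Berkshire muscle. In liver the share was 0.0152% and 0.0154%, and in fat 0.0331% and 0.0393%, in the same order of breeds. TPM1 held 1188 of 2211 counts in Korean native fat and 1557 of 2489 in Berkshire fat.

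Other sarcomere genes were taken from lists named for their function. In each list some genes were nearly absent outside muscle, entered the test through muscle alone and had to differ. The counts called are therefore no independent evidence. Over all genes tested, 9.95% were higher and 6.43% lower in muscle than in fat. Among other thin filament and associated genes, 8 of 11 tested were higher in muscle than in fat and 0 lower, with a median log2 of 6.28 against -0.05 for all genes. TNNI1, the slow inhibitory troponin subunit, stood at 1455 and 671 CPM in Korean native and Berkshire muscle, and TMOD4, which caps the pointed end of the thin filament, at 2212 and 889 CPM. LMOD2, a leiomodin that nucleates and lengthens actin filaments, went the other way between the breeds at 690 and 2716 CPM, as did NRAP, a nebulin-related anchoring protein, at 580 and 1893 CPM. LMOD2 was 3.93-fold and NRAP 3.26-fold higher in Berkshire muscle.

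Among other thick filament genes, 10 of 10 tested were higher in muscle than in fat, with a median log2 of 11.59. In this list 12 genes matched an ID, and those with few counts in muscle were not tested. MYH13, at 0 to 0.4 CPM in liver and fat, entered through muscle alone. The ID named MYH8, a myosin heavy chain, stood at 33548 and 27405 CPM in Korean native and Berkshire muscle, and the ID named MYH6 at 7824 and 5570 CPM. Heavy chain genes lie in clusters of near-identical copies and several members of the family matched no ID, so these levels are uncertain. MYBPC2, the fast myosin binding protein C, stood at 9377 and 4624 CPM, while the slow form MYBPC1 stood at 5517 and 7624 CPM. MYH13 (2456 and 541 CPM) and MYH3, an embryonic heavy chain (239 and 53.1 CPM), were named after their values were seen.

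All 16 tested Z-disc genes were higher in muscle than in fat, with a median log2 of 9.09. The Z-disc anchors the thin filaments. In Korean native muscle 6 of 16 had a higher value, with a median breed log2 ratio of -0.35, against 4431 of 8252 genes overall and 426 of 555 other muscle-enriched genes. The difference from the other lists was not tested. ACTN2, the alpha-actinin that crosslinks thin filaments, stood at 2744 and 5712 CPM, and MYOT (myotilin) at 3157 and 5044 CPM. DES (desmin), the intermediate filament that links Z-discs, stood at 6309 and 5878 CPM.

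Genes of calcium release and uptake followed muscle, with 11 of 12 higher than in fat and 1, ASPH, lower. ATP2A1, the fast calcium pump, stood at 12514 and 8823 CPM in Korean native and Berkshire muscle, and SLN (sarcolipin), which inhibits that pump, at 3492 and 1757 CPM. Their median breed log2 ratio in muscle was 0.61, with 9 of 12 higher in the Korean native library, near the 426 of 555 and median of 0.70 of the other muscle-enriched genes.

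Genes whose profile over the 6 libraries was most like the mean of the 10 were found by the root mean square difference of centred log2 CPM. They were MYL3 (0.28), a slow and ventricular light chain, MYLK2 (0.34), the kinase of the skeletal regulatory light chain, MYOM2 (0.39), an M-band protein, TRDN (0.39), triadin of the calcium release site, and AMPD1 (0.41), muscle AMP deaminase. The 10 genes themselves lay at 0.49 (TNNT1) to 2.69 (MYBPH) from their own mean, so these 5 genes lay closer to the mean than any of them.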

How the data were processed

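The authors deposited raw read counts per Ensembl gene ID for each library. Per the submitters' processing notes, TopHat, HTSeq (0.5.3p3) and the Sscrofa10.2 build were used; strand, mode and annotation release are not stated. The 5 entries that name no gene were left out of library sizes (no feature 45.9% to 52.5% of a library, no unique alignment 14.1% to 20.8%). Symbols came from the supplied table, which matched 11804 of 25322 IDs. Transcript lengths and sequences were not used here, so levels are not compared between genes.

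Tests used edgeR 4.0.16 in R 4.3.3, with TMM factors, filterByExpr (13810 genes), an additive model of tissue and breed with 2 residual degrees of freedom, a two-sided quasi-likelihood test and Benjamini-Hochberg adjustment over all genes at 0.05. Each SE was taken as the size of the log2 value divided by sqrt(F). Enriched genes passed against both tissues with a log2 of at least 2. Ratios within a tissue used a prior count of 2, except the ratios first given for genes below 10 CPM, which used none. The fit was tested on simulated data. Alternatives were DESeq2 1.42.0, limma-voom (limma 3.58.1), other scalings, no filter, other terms and leaving out each library.

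All 10 genes were to be named, with up to 4 genes of highest level from each of the 13 other lists and the 5 nearest profiles. MYF6, VGLL2, GPD1, ACTC1, ASPH, MARCO, ADORA1, PROX1, PPARGC1A, MYH11, CNN1, MYH3 and MYH13 were added for their values. Genes and lists were chosen with earlier results of these data known.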

Additional observations from a re-analysis of the deposited data

Results flagged for a closer look

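TPM1 is set apart because its breed ratio pointed in opposite directions in muscle and fat. The log2 ratio of Korean native over Berkshire was 1.36 in muscle (23852 and 9270 CPM) and -0.38 in fat (117 and 152 CPM). The counting interval of the fold lay between 2.55 and 2.60 in muscle and between 0.712 and 0.829 in fat. With 1 library of each breed and tissue the difference between tissues was not tested.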

How the results depend on the processing

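The 10 calls for muscle over liver held under every alternative, and 9 or 10 genes were called for muscle over fat. Genes called between liver and fat numbered 1, against 2 with DESeq2 and 0 to 2 when a library was left out (MYBPH was added without either muscle library, NEB lost without Berkshire liver or fat). With total counts the 1 gene was TPM1 (log2 -1.80) in place of NEB, and the median of all genes was -0.94. For breeds over tissues the count was 0, against 1 (MYL11) with DESeq2. At least 2-fold higher in Korean native muscle were 5 genes, 3 with total counts and 1 when centred on muscle-enriched genes. Counts of the sarcomere genes were also divided by gene counts without the 10 genes of highest count. This gave 18.7% and 13.4% in Korean native and Berkshire muscle, 0.0227% and 0.0215% in liver and 0.0404% and 0.0461% in fat. The genes left out of the denominator included ACTA1, TPM1 and MYL11 in Korean native muscle and ACTA1 in Berkshire muscle. Their counts stayed in the numerator, so the 2 muscle values are not shares. Over all genes, total counts called 6020 for muscle over fat (12.7% higher in muscle) against 2262 (60.7%), and 6955 for liver over fat (16.6% higher in liver) against 3959 (53.0%). For breeds DESeq2 called 94 genes, no filter 87 and TMM scaling with edgeR 15. The breed term already pairs the 3 tissues of a breed, and the fit without it (no replicate block) called 10 genes for muscle over fat, with MYBPH added. Depth limits the shares of troponin C and light chain genes outside muscle.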

Other observations

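Nonmuscle relatives of the sarcomere genes did not follow muscle. Of 8 tested, 0 were higher and 0 lower in muscle than in fat by edgeR, with a median log2 of -0.67 against -0.05 for all genes. As 9.95% of all genes tested were higher and 6.43% lower, counts of 0 among 8 lie near those shares. ACTB and ACTG1, the cytoplasmic actins, stood at 638 and 682 CPM in Korean native muscle, 416 and 506 CPM in Berkshire muscle, 1161 and 1074 CPM in Korean native fat and 827 and 794 CPM in Berkshire fat. MYH9, a nonmuscle myosin heavy chain, stood at 305 and 448 CPM in Korean native and Berkshire muscle and at 793 and 855 CPM in fat.

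Transcription factors of muscle were higher in muscle than in fat in 14 of 14 tested cases, against 9.95% of all genes tested. Some of them, MYF6 and VGLL2 with 0 counts in liver and fat among them, entered the test through muscle alone and had to differ. MEF2C stood at 292 and 279 CPM in Korean native and Berkshire muscle, 12.8 and 19.0 CPM in liver and 50.6 and 31.1 CPM in fat. PROX1 and PPARGC1A were the 2 of 14 that were lower in muscle than in liver, and were named after their values were seen.

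Of 12 tested genes of sarcomere assembly and turnover, 11 were higher in muscle than in fat, against 9.95% of all genes tested. Some of the 11 had no counts outside muscle, entered the test through muscle alone and had to differ. HSPB8, a small heat shock protein, stood at 611 and 448 CPM in Korean native and Berkshire muscle, and FBXO40, a muscle ubiquitin ligase subunit, at 475 and 226 CPM. HSP90AA1, a chaperone that also folds myosin, did not pass, at 822 and 418 CPM in Korean native and Berkshire muscle and 579 and 692 CPM in fat.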
